A study of Arabidopsis thaliana with 6 samples.

Results

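Aliphatic glucosinolates are sulphur-rich defence compounds that Arabidopsis makes from methionine. Their synthesis was followed here through 10 probe sets of the Affymetrix ATH1 array, out of 22810 on the array. The members were given by a list of probe set identifiers and genes. Sorted here by their listed names, 2 stand for transcription factors, 3 for side-chain elongation and 5 for core synthesis. The array's annotation table pairs 2 of the 10 with their gene, 257021_at with BCAT4 and 263477_at with AT2G31790. The other 8 have no gene in the table used here and carry the name under which they were listed, and for 0 of the 10 did the table name another locus. All 10 were bright enough to be tested, each through its mean over all 6 arrays.

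Plants of the wild-type accession Col-0 (stock CS60000) that had received saliva of the green peach aphid, Myzus persicae, were compared with control plants. They were 3 weeks old, had been grown on soil under a 16 h photoperiod at 23 °C, and had not flowered. Total RNA was hybridised to 3 control and 3 saliva arrays, and the question was which transcripts differ between these groups. The labels used here give neither the tissue, the way and time of saliva treatment nor what control plants received. They also leave unsaid whether replicates came from separate plants, and the p-values therefore reflect only how far these arrays differ, which could be technical.

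In this pathway the methionine side chain is first lengthened in repeated rounds, then the chain-elongated amino acid is turned into the glucosinolate core, and last the side chain is modified. R2R3-MYB transcription factors switch the genes on together, and MYC factors work with them. The intact compounds travel in the phloem sap on which aphids feed, and the enzyme myrosinase breaks them down when tissue is crushed. Because a stylet passes between cells with little damage, aphids are known to take up aliphatic glucosinolates largely unbroken.

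The deposited signals share a scale. The mean signal of each array, with 2% of probe sets trimmed at each end, was 100.01, the same value a common scaling would set. It therefore does not show whether the arrays were alike before scaling. Pearson correlations between arrays ran from 0.975 to 0.988 over the 13647 probe sets tested. Saliva replicate 3 stood farthest from its own group, at a mean correlation of 0.980, and saliva replicate 1 was as close to the controls (0.984) as to its own group (0.983). Leaf genes were bright, with PRK of the Calvin cycle at 3257 to 4235 and the light-harvesting gene LHCB4.1 at 5403 to 7113, while the 3 named root markers stayed at or below 11.2. The guard cell marker FMA read 41.6 to 51.0. Markers of phloem and flower lack a named probe set here, so the share of these tissues was not assessed. In RNA of whole samples, fewer cells of a type and less RNA per cell cannot be told apart.

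No member of the pathway passed the test between saliva and control. A probe set counted as changed when its limma p, adjusted over all 13647 tested, was under 0.05. This held for 0 of the 10 members and for 8 probe sets in all, a background of 0.0586%. On the log2(signal + 16) scale 7 members were lower with saliva and 3 higher, with a median difference of -0.061 against 0.0057 over all probe sets tested. The split was 6 lower and 4 higher with quantile normalization and 9 lower and 1 higher with the arrays centred on their medians. Single arrays moved it as well: it was 5 lower and 5 higher without control replicate 2 (median -0.0024) and without saliva replicate 1 (median -0.0097), and 9 lower and 1 higher without control replicate 3 (median -0.18). Without saliva replicate 2 the median was -0.17. Over all probe sets, 48.5% were lower. The largest difference of a member was that of UGT74C1, -0.29, and the next that of MYB28, -0.26.

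**Figure D1:**
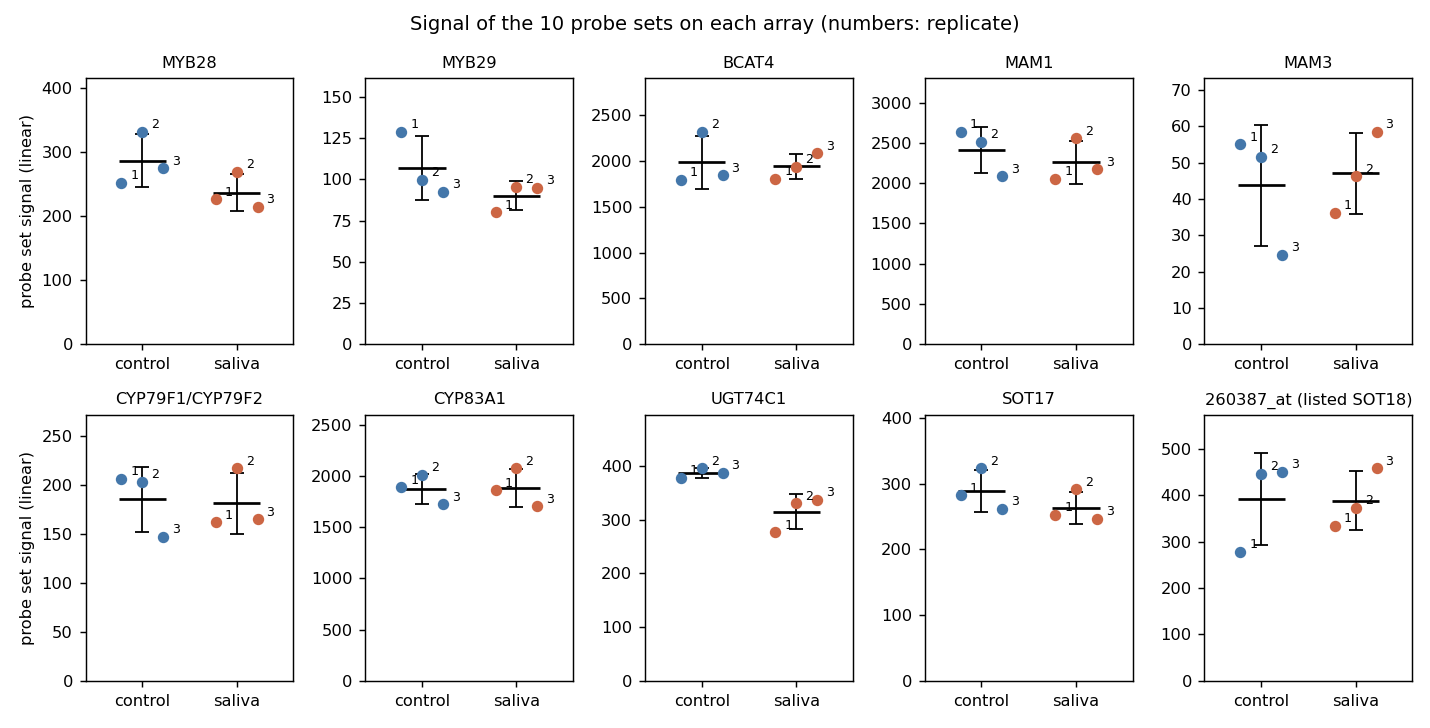
Probe set signal (linear scale from 0, its own range in each panel) of the 10 members on each array, with dots numbered by replicate, blue for control and orange for saliva. The black line is the mean and the bar the SD of 3 arrays. UGT74C1 is the member whose groups do not overlap.

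The regulators come first. MYB28 (247549_at) encodes the main activator of the aliphatic branch. Its signal was 252, 332 and 275 on control replicates 1 to 3 and 226, 269 and 214 on the saliva arrays in the same order. The saliva array of replicate 2 lay above the control array of replicate 1, so the groups overlapped, although 2 of the 3 saliva arrays were below every control. On the log2 scale the difference was -0.26 ± 0.13 (SE), with a 95% interval of -0.53 to 0.018 and a limma adjusted p of 0.514. The interval corresponds to 0.692-fold to 1.01-fold. Leaving out single arrays moved the difference between -0.35 and -0.15, and the smallest difference was that without control replicate 2, the array with the highest signal.

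MYB29 (250598_at) encodes a close relative that acts beside MYB28 and responds to jasmonate. On the control arrays the signal was 129, 99.6 and 92.4, and on the saliva arrays 79.9, 95.3 and 94.8. Control replicate 1 stood above the other 5 arrays, and the saliva arrays of replicates 2 and 3 fell inside the control range. The difference was -0.21 ± 0.13 (95% interval -0.49 to 0.081, adjusted p = 0.644), and without control replicate 1 it was -0.082. The third factor of this subgroup, MYB76, whose gene directly neighbours MYB29 in RefSeq's order of protein-coding genes (assembly TAIR10.1), has no probe set named here.

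Side-chain elongation opens with BCAT4 (257021_at, AT3G19710), an aminotransferase that removes the amino group of methionine. Control arrays read 1792, 2319 and 1842, and saliva arrays 1802, 1932 and 2081. All 3 saliva signals lay inside the range of the controls. The difference of -0.026 ± 0.11 had a 95% interval of -0.27 to 0.22, or 0.829-fold to 1.16-fold, and its sign turned with quantile normalization (0.053) and without control replicate 2 (0.090) or saliva replicate 1 (0.024).

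MAM1 (249866_at) and MAM3 (249867_at) encode methylthioalkylmalate synthases, which add the extra carbon in each round. MAM1 serves the short chains that dominate in Col-0 leaves, and MAM3 accepts substrates of all lengths and is needed for the long ones. The genes are direct neighbours in RefSeq's order. For MAM1 the controls gave 2641, 2514 and 2087 and the saliva arrays 2053, 2559 and 2171. The groups overlapped over nearly their whole range, with the lowest signal on saliva replicate 1 and the next on control replicate 3. The difference was -0.093 ± 0.12 (95% interval -0.34 to 0.16, adjusted p = 0.845). It was -0.19 without control replicate 3, -0.025 without control replicate 1 and -0.017 with quantile normalization.

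MAM3 was the most variable member. Its control signals were 55.1, 51.7 and 24.6 and its saliva signals 36.2, 46.2 and 58.5, so a single control array, replicate 3, lay below all others. The difference was 0.10 ± 0.20, with the widest interval of the set, -0.33 to 0.54 (0.793-fold to 1.46-fold). Without control replicate 3 it was -0.15 and without saliva replicate 3 -0.025, and the spread within groups, an SD of 0.36, was larger than that of 97.9% of all probe sets tested.

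Core synthesis starts with CYP79F1 and CYP79F2, cytochromes P450 that turn chain-elongated methionine into aldoximes. Both are measured by 1 probe set, 262717_s_at, and are direct neighbours in RefSeq's order. The suffix marks probes shared between transcripts, so the signals of the genes cannot be separated here. The controls gave 206, 204 and 147 and the saliva arrays 162, 217 and 165. Control replicate 3 was lowest and saliva replicate 2 highest, and the difference of -0.028 ± 0.15 (95% interval -0.35 to 0.29) changed sign without either of control replicates 1 and 2 or saliva replicates 1 and 3.

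CYP83A1 (254687_at), the P450 that oxidises the aldoximes in the following step, differed least. It read 1888, 2011 and 1726 on the control arrays and 1859, 2076 and 1705 on the saliva arrays, which is nearly the same range in both groups. The difference was 0.0021 ± 0.10 (95% interval -0.22 to 0.23, or 0.857-fold to 1.17-fold), and it was -0.011 with the arrays centred on their medians, -0.056 without control replicate 3 and -0.071 without saliva replicate 2. Of all probe sets tested, 98.6% had a smaller p.

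UGT74C1 (263477_at, AT2G31790), a glucosyltransferase that adds the sugar to the aliphatic thiohydroximate, was the single member whose groups did not overlap. The controls gave 377, 395 and 387, a tight group. The saliva arrays gave 277, 330 and 337, all below the lowest control, and saliva replicate 1 was the lowest of them. Mean signals were 387 ± 8.97 (SD, n = 3) and 315 ± 33.0 (SD, n = 3). On the log2 scale the difference was -0.29 ± 0.11 (95% interval -0.52 to -0.056), or 0.818-fold.

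That difference did not pass, with an adjusted p of 0.359 and an unadjusted limma p of 0.0191. Over all probe sets 10.2% had an unadjusted p under 0.05, and 7.72% had all saliva values below all control values, so 1 of 10 members under either rule is near the background. Under the alternatives between 0 and 2 members had an unadjusted limma p under 0.05. Without saliva replicate 1 the difference of UGT74C1 was -0.20, with an unadjusted limma p of 0.0944. Leaf genes differed by a similar amount: PRK by -0.23 ± 0.095, LHCB4.1 by -0.21 ± 0.090 and SBPASE, also of the Calvin cycle, by -0.21 ± 0.088, each without overlap of the groups and none past the threshold. These 3 of the 6 leaf markers on the list are the ones named here, and their part in the value of UGT74C1 was not tested. The guard cell marker FMA differed by -3e-04 ± 0.12.

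SOT17 (255773_at) encodes a sulfotransferase that completes the glucosinolate core. The control signals were 282, 323 and 262 and the saliva signals 252, 291 and 247. The lower 2 saliva arrays lay below every control and the third inside their range. The difference was -0.12 ± 0.12 (95% interval -0.37 to 0.13, adjusted p = 0.770), and without single arrays it ran from -0.195 (saliva replicate 2 left out) to -0.045 (control replicate 2 left out).

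The last member, 260387_at, was listed as SOT18, another sulfotransferase gene. The table used here gives no gene for it, and RefSeq places SOT16, a gene of the same enzyme family, directly beside SOT18, so the member is called by its identifier and no step is assigned to it. Control arrays gave 278, 446 and 451 and saliva arrays 334, 373 and 458. Control replicate 1 was lowest and saliva replicate 3 highest. The difference of 0.0087 ± 0.17 (95% interval -0.36 to 0.38) turned to -0.21 without control replicate 1, -0.11 without saliva replicate 3, -0.075 with array weights and -0.0039 with median centring. With this probe set left out, a choice made after its values were seen, the median difference of the other 9 members was -0.093.

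**Figure D2:**
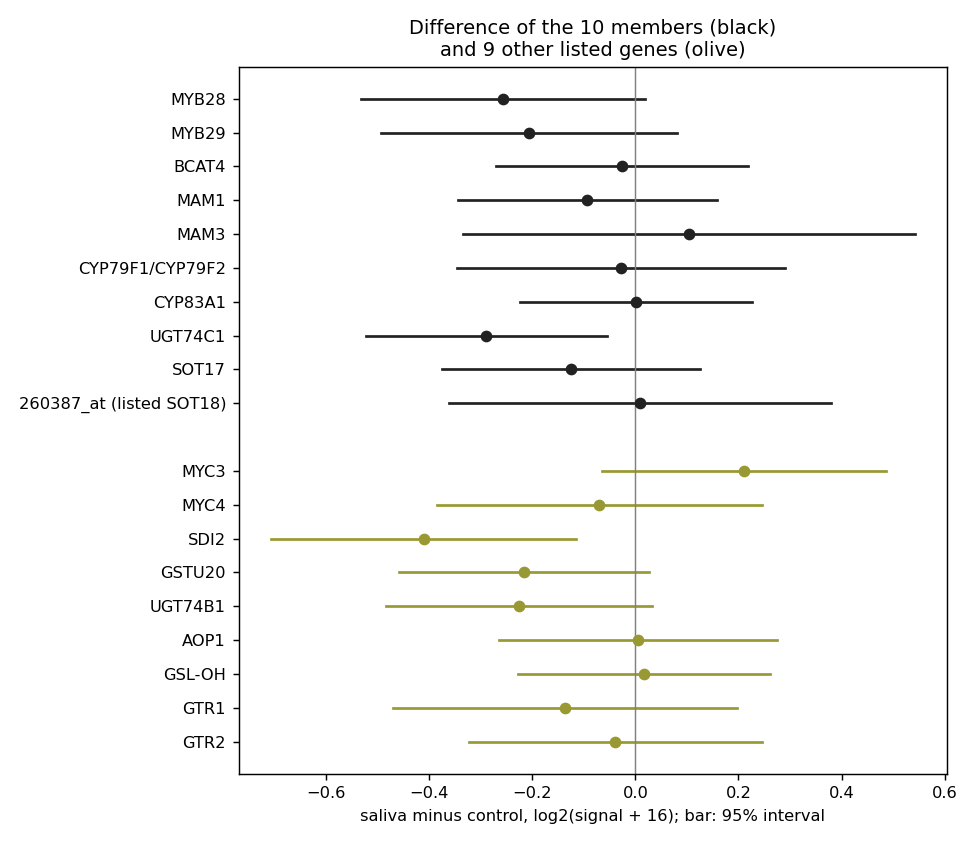
Difference between saliva and control on the log2(signal + 16) scale (x axis) for the 10 members in black and the 9 other tested genes of the pathway list in olive, with dots for the fitted difference and bars for its 95% interval. Of the members, 9 have intervals that hold 0, and the interval of UGT74C1 ends at -0.056.

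The intervals bound what these arrays leave room for. Taken one by one, the 95% intervals of the 10 members ran from 0.692-fold at the lowest end (MYB28) to 1.46-fold at the highest (MAM3). With all 6 arrays and the offset of 16, a 1.5-fold change of signal + 16 in either direction lay outside each of these intervals. As a ratio of the signals themselves the same change is larger, most so for dim members such as MAM3. The bound therefore holds for signal + 16 only, and it did not hold under every alternative. The interval of MAM3 reached 1.69-fold with an offset of 1, 1.56-fold with no filter on dim probe sets and 1.65-fold without control replicate 1, and it also passed 1.5-fold when control replicate 2, or either of saliva replicates 1 and 2, was left out. At the low end, without single arrays, the intervals reached 0.638-fold for MYB28, 0.657-fold for MYB29 and 0.659-fold for UGT74C1, each beyond a 1.5-fold decrease. In the main fit 9 of the 10 intervals held no change, which does not show that levels were the same. The interval of MYB28 excluded 0 under 4 of 15 alternatives, and that of UGT74C1 under 13. Signals of different probe sets were not set against each other, since they depend on the probes.

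**Figure D3:**
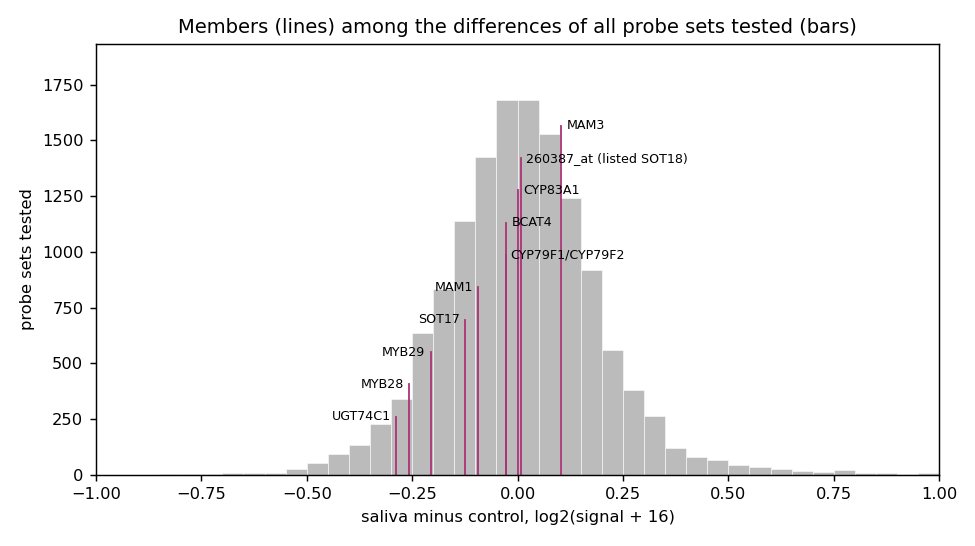
Number of probe sets tested (y axis) by their difference between saliva and control on the log2(signal + 16) scale (x axis, shown from -1 to 1, bars of width 0.05), with a line for each member at its own difference. Line heights serve only to separate the names. The members lie between -0.29 and 0.10, within the bulk of the distribution.

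Against the whole array the members did not differ more between the groups in the median. Their median absolute difference was 0.099, and that of all probe sets tested was 0.11. Within the groups their median SD was 0.174, against 0.152 for all probe sets tested. An absolute difference over 0.25 was found in 2 of the 10, UGT74C1 and MYB28, and in 14.7% of all probe sets. The share of a member's variation over the 6 arrays that lay between the groups was 73.1% for UGT74C1, 44.1% for MYB28, 33.5% for MYB29 and 24.1% for SOT17. For the other 6 it was at most 9.95%. The median was 6.46% for the members and 16.5% for all probe sets tested. For 9 of the 10 members most of the variation thus lay within the groups.

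The members shared a pattern across arrays that followed the groups only in part. On saliva replicate 1 all 10 lay below their own mean over the 6 arrays, and on control replicate 2 all 10 lay above it. Of all probe sets tested, 48.1% were below their mean on the former and 49.8% above it on the latter. Members that vary together are not separate observations, so these shares do not say how rare such an array is. Saliva replicate 1 was the lowest or next lowest array for 9 of the 10 members and for 31.3% of all probe sets. Relative to its mean, the median member was at -0.18 on that array, -0.076 on control replicate 3 and -0.073 on saliva replicate 3. It was at 0.17 on control replicate 2, 0.073 on control replicate 1 and 0.051 on saliva replicate 2. Each group therefore held arrays with high and with low values of the pathway. Over all probe sets the corresponding medians stayed between -0.0041 and 0.0083. These arrays were singled out after the values were seen, and the labels give no batch that could be set beside them.

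**Figure D4:**
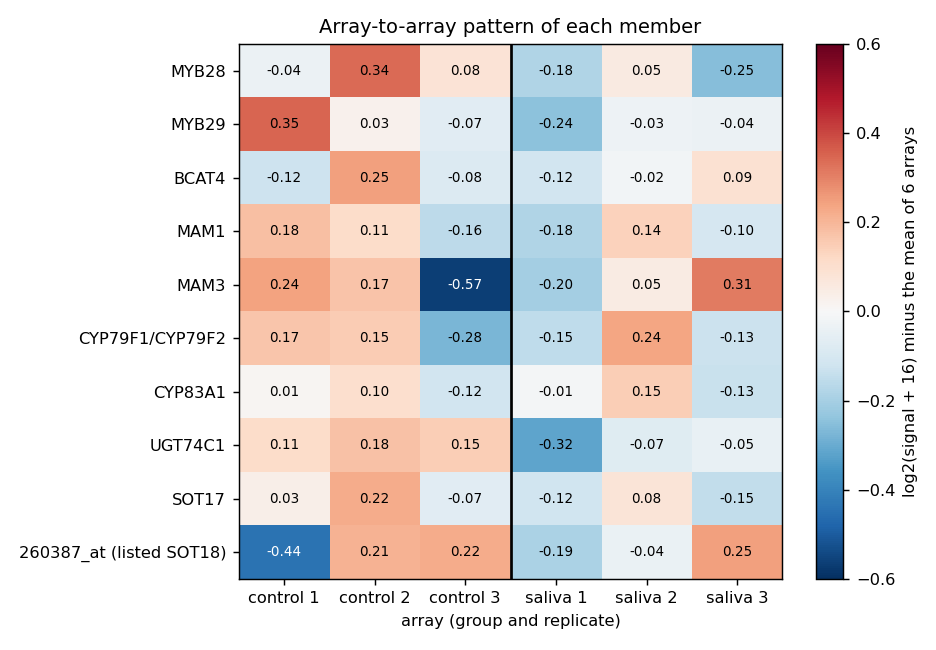
Value of each member (rows) on each array (columns) as log2(signal + 16) minus the member's mean over the 6 arrays, with red above and blue below that mean. The column of saliva replicate 1 is below 0 in all 10 rows and that of control replicate 2 above 0 in all 10.

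Within the groups some pairs of members varied alike. Deviations from the group means gave 45 pairs of members over 6 arrays, with a median Pearson correlation of 0.39 and a range of -0.56 to 0.98. The pair of MAM1 and CYP79F1/CYP79F2 stood highest at 0.98, followed by CYP83A1 with SOT17 at 0.93. CYP79F1/CYP79F2 gave 0.87 with CYP83A1 and 0.85 with SOT17. Of the 2 regulators, MYB28 was nearest to SOT17 (0.87) and CYP83A1 (0.77), and MYB29 to MAM3 (0.76) and MAM1 (0.75). MYB28 and MYB29 had a correlation of -0.29 with each other. These values describe 6 arrays that share their scaling, and taking out the group means leaves few independent points. The pairs named were picked after all were seen. Whether such correlations are as common among other probe sets was not tested.

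The probe set 260387_at stood apart from the other members in this respect. Its 9 pairs had a median of -0.19, and 4 of them were above 0. Among the 36 pairs of the other members 34 were above 0, with a median of 0.46. Its highest pair was that with BCAT4 (0.66) and its lowest that with MYB29 (-0.56). The pairs of UGT74C1 ran from 0.033 with CYP83A1 to 0.56 with BCAT4, with 0.29 for SOT17. Low values were not particular to it, since BCAT4 gave 0.22 with MAM1 and 0.25 with CYP83A1.

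**Figure D5:**
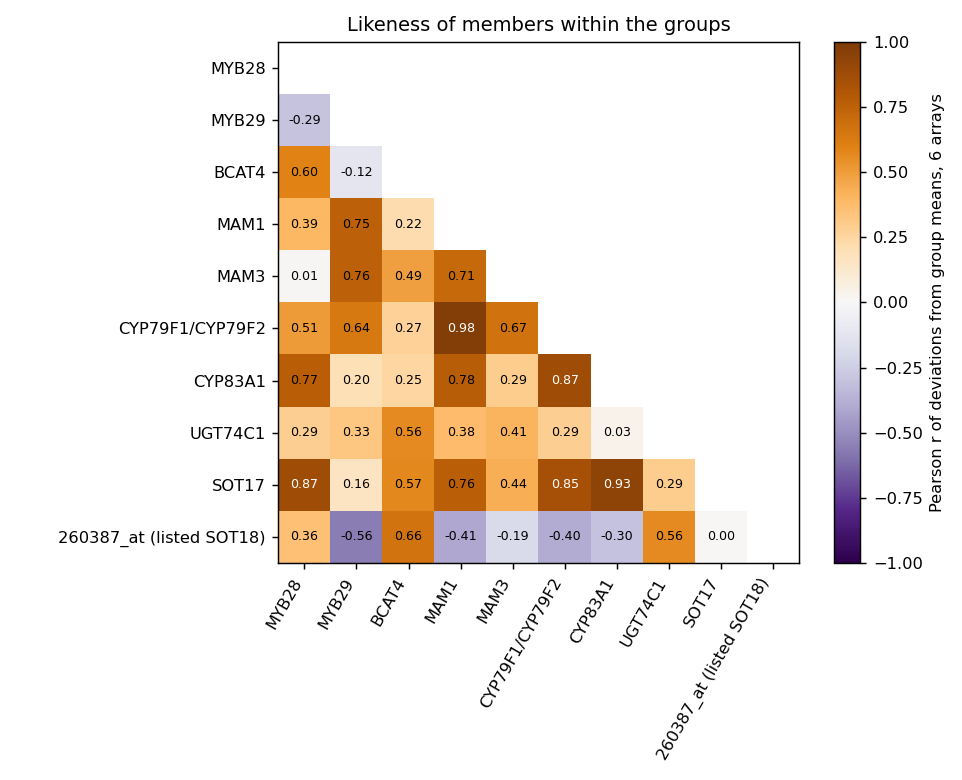
Pearson correlation between each pair of members over the 6 arrays after the mean of each group was taken out, in orange where positive and purple where negative. Pairs among MAM1, CYP79F1/CYP79F2, CYP83A1 and SOT17 lie between 0.76 and 0.98, and 5 of the 9 pairs with 260387_at are below 0.

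Outside the pathway list, the 5 named genes whose log2 values over the 6 arrays were most like the mean of the members were petB, ndhJ, AT2G26110, rps16 and AT5G21060. Their Pearson correlations with it ran from 0.978 to 0.984, the highest among 7356 probe sets with 1 gene, and from 0.922 to 0.963 with 260387_at left out of the mean. petB, ndhJ and rps16 are genes of the chloroplast genome, for a cytochrome subunit of photosynthetic electron transport, a subunit of the plastid NDH complex and a plastid ribosomal protein. None of the 5 passed the test, with differences from -0.15 to -0.065. With 6 arrays and so many candidates these values are a description of likeness only.

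Of the 41 other genes on the pathway list, 10 have a probe set named here and 9 were tested. Of these 9, 0 passed, 3 were higher and 6 lower, with a median difference of -0.070. The regulators gave the extremes in both directions. SDI2 (AT1G04770), a gene induced by sulphur deficiency whose product holds back aliphatic glucosinolate synthesis, gave control signals of 207, 193.5 and 227 and saliva signals of 135, 137 and 193.6. Saliva replicates 1 and 2 lay well below the controls, and saliva replicate 3 just reached their range. The difference was -0.41 ± 0.14 (95% interval -0.71 to -0.11, adjusted p = 0.289), with an unadjusted limma p of 0.0104. It kept its sign under all alternatives, from -0.57 without saliva replicate 3 to -0.33.

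MYC3, one of the MYC factors that act with MYB28 and MYB29, read 143, 114 and 111 on the control arrays and 149, 157 and 126 on the saliva arrays. The difference of 0.21 ± 0.13 (adjusted p = 0.614) was the highest of the list. MYC4, its close relative, differed by -0.070 ± 0.15 (0.0082 without saliva replicate 2).

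Enzymes next to the members in the core pathway were lower without passing. GSTU20, a glutathione transferase linked to the aliphatic branch, differed by -0.22 ± 0.11 (adjusted p = 0.536), with signals of 1438 to 1653 in the controls and 1181 to 1536 with saliva. Its difference was -0.13 without saliva replicate 3 and -0.31 without saliva replicate 2. UGT74B1, which glucosylates thiohydroximates of several glucosinolate classes, differed by -0.23 ± 0.12 (adjusted p = 0.549). Its control signals were 401, 424 and 351, and 382, 300 and 319 were read with saliva. UGT74B1 and UGT74C1 thus had differences of like size.

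Side-chain modification and transport gave small differences. GSL-OH (AT2G25450), a hydroxylase of butenyl side chains, differed by 0.017 ± 0.11 (-0.034 with array weights and -0.11 without control replicate 3). AOP1, a dioxygenase gene of the AOP family, differed by 0.0051 ± 0.12 (-0.0076 with median centring and -0.013 with quantile normalization). AOP3, next to it in RefSeq's order of protein-coding genes, which lacks AOP2, was too dim to be tested, with signals of 6.49 to 17.1. The transporters GTR1 and GTR2, which load glucosinolates into the phloem, differed by -0.14 ± 0.15 and -0.039 ± 0.13. Without single arrays GTR1 ran from -0.28 to 0.013 and GTR2 from -0.13 to 0.11. The listed genes of elongation outside the members, of sulphate supply, of glucosinolate breakdown and of the indole branch lack a probe set with a gene name here, and they were not analysed.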

How the data were processed

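The deposited values are probe set signals of 6 ATH1 arrays, an intensity on a linear scale. The submitters' processing notes list MAS5, GCOS and limma with neither role nor version. Detection calls were not analysed here, and 0 columns belonged to other samples.

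After removal of 64 control probe sets, 22746 were converted to log2(signal + 16), a scale on which changes of dim probe sets look smaller. The dimmest 40% by mean over the 6 arrays were dropped, which kept 13647 with a mean of 5.04 or more. Groups came from the agent in the labels. They were compared in R 4.3.3 with limma 3.58.1 (lmFit, eBayes with a mean-variance trend), two-sided, with Benjamini-Hochberg adjustment over all probe sets tested. Values after ± are standard errors unless marked SD, and intervals are the fit's own at 95%, not adjusted for the number of members. With 3 arrays a group, precision is limited.

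Names came from the platform's annotation, updated through RefSeq (TAIR10.1), for 13513 probe sets with 1 gene. SDI2, GSL-OH and UGT74C1 are list names for loci. Where a gene had more than 1 probe set, the brightest stood for it. All members are named, as are all listed genes with a probe set named here and the 5 nearest in pattern. The members and lists were chosen with earlier results of these data known. Alternatives were other offsets, filters, scalings and fits, the replicate number as a block, and each array left out. In 5 simulations of saliva against control with 13647 probe sets and 200 changes each, the fit found 49.2% of planted log2 changes of 0.5 and 99.6% of those of 1, with 7.23% false calls. Noise was normal, independent between probe sets and drawn at the fit's own variances. With 200 changes planted, the adjusted threshold is easier to reach than in the data, where 8 probe sets passed. These shares are therefore not the power to find a change in a member.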

Additional observations from a re-analysis of the deposited data

How the results depend on the processing

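Under each of the 15 alternatives 0 members and 0 of the other listed genes passed, and the differences of MYB28, MYB29, MAM1, UGT74C1 and SOT17 kept their sign. Whether replicate numbers pair the arrays is not settled. Deviations of same-numbered arrays correlated at -0.059 for replicate 1, 0.12 for replicate 2 and 0.15 for replicate 3. Arrays of different numbers reached at most 0.089, and not every array correlated best with its own number. With the replicate block the count of all probe sets past the threshold was 29 against 8, with 0 members among them, and MYB28 had an unadjusted limma p of 0.0340 in place of 0.0645. That count was 53 with array weights, 2 with an offset of 1 or of 64 or with the lowest 60% left out, and 1 with no filter, no trend or quantile normalization. With each array left out in turn it lay between 1 and 14, and the cause was not tested. Signs turned for 10 of the 19 differences. With median centring CYP83A1 was -0.011, AOP1 -0.0076 and 260387_at -0.0039. With quantile normalization BCAT4 was 0.053 and AOP1 -0.013, and with array weights 260387_at was -0.075 and GSL-OH -0.034. Without single arrays BCAT4 ran from -0.094 to 0.090, MAM3 from -0.15 to 0.25, CYP79F1/CYP79F2 from -0.17 to 0.048, CYP83A1 from -0.071 to 0.070 and 260387_at from -0.21 to 0.12. In the same way AOP1 ran from -0.068 to 0.063, GSL-OH from -0.11 to 0.083, GTR1 from -0.28 to 0.013, GTR2 from -0.13 to 0.11 and MYC4 from -0.18 to 0.0082. MAM3, AOP1 and MYC4 were not tested with the lowest 60% left out. The median difference of the members ran from -0.18 without control replicate 3 to -0.0024 without control replicate 2.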
